A study of Mus musculus with 36 samples.

Results

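The Lgr5 lineage of mouse tail epidermis was compared 1 week after a first full-thickness wound with the same lineage in unwounded skin, across all genes of a mini-bulk RNA-seq count table. The 6 libraries were chosen by their labels, 3 of the Lgr5 population at 1 week after wounding (1w pw1) and 3 of the Lgr5 population without a wound (0w), out of 36 libraries in the series. All mice carried the Lgr5-EGFP-ires-CreERT2 knock-in together with the reporter Rosa26-fl/STOP/fl-tdTomato. All of them, the unwounded ones included, received 1 topical dose of (Z)-4-hydroxytamoxifen on the tail 1 week before 0w, at 6 to 8 weeks of age. They were 7 to 9 weeks old at 0w, when the wounded groups received a circular punch through the tail skin. The series holds no unwounded group at 1w, and the wounded libraries were taken 1 week later than the unwounded ones. Wounding, age, time since the drug and collection date therefore cannot be told apart here. Epidermal cells positive for tdTomato were sorted by flow cytometry out of tail skin that included the wound bed as well as distant hair follicles (HFs). Each library was made from 150 cells. The label marks cells that expressed Lgr5 when the drug was given, together with all their descendants, and is called Lgr5 GL (genetically labelled lineage). The sorted gate therefore does not require that a cell still expresses Lgr5, and cells inside and outside the wound bed were not separated. Other groups used beside these 6 libraries were Lgr5 GL cells at 2, 4 and 8 weeks after the first wound (2w, 4w and 8w pw1), and Lgr5 GL cells 1 week after a second wound made at 8 weeks (1w pw2). Lrig1 GL cells at 0w and 1w pw1 were used too, from mice with Lrig1-EGFP-ires-CreERT2 and the same reporter and drug. Each of these groups had 3 libraries. The study's figure legend gives n = 3 mice for the comparison of these lineages. The labels themselves do not tie a library to an animal. The p-values measure the spread between libraries, which may in part be technical.

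Lgr5 encodes a receptor for R-spondins, which strengthen Wnt signalling, and in resting skin it marks stem cells of the lower HF, in the bulge and the hair germ. These cells normally rebuild the lower follicle and hair during hair growth. After injury, cells of several HF compartments leave the follicle, move into the interfollicular epidermis (IFE), and there take part in closing the wound. Repairing keratinocytes are known to express keratins 6, 16 and 17 and glycolytic enzymes.

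The 0w libraries held 3775424 to 5270132 read counts assigned to genes and the 1w pw1 libraries 2052347 to 4930580. Counts were not collapsed by molecular identifiers, so they carry counting error and amplification error that cannot be separated. Values are given as CPM, which are counts per 1000000 after TMM scaling (trimmed mean of M values, which sets the library sizes so that most genes do not differ). The libraries are named a, b and c at 0w and replicates 1, 2 and 3 at 1w pw1. A single long non-coding RNA gene, Gm12415, took 12.04% to 49.7% of the counts of these libraries, the highest share in 1w pw1 replicate 1. On log2 CPM, Pearson's r across genes was 0.776 to 0.857 between 0w libraries, 0.79 to 0.835 between 1w pw1 libraries and 0.717 to 0.805 between the groups. The libraries therefore resembled each other within a group only a little more than between groups, and 1w pw1 replicate 1 stood farthest from the 0w libraries. The 10 markers of epidermis summed to 31123 to 38728 CPM at 0w and 32862 to 45719 CPM at 1w pw1, and Lgr5 itself was read in every library, so the cells carried the epidermal identity that their label states.

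At 1w pw1 against 0w, 232 of the 18025 genes tested were called (1.29%). Of these 77 were higher (0.427%) and 155 were lower (0.86%) in the wounded group. A gene was called by edgeR's quasi-likelihood test, with the dispersion trend estimated over all 18 Lgr5 libraries. The call needed a p under 0.05 after Benjamini-Hochberg adjustment and an absolute log2 fold change above 1. At an unadjusted p under 0.05, 3353 genes passed, and the smallest adjusted p was 0.0136, so the called genes lie near the threshold. The biological coefficient of variation was 0.662, a large spread, in libraries of 150 cells each. All 3 libraries of 1w pw1 lay above all 3 of 0w for each of the 77 higher genes and below them for 152 of the 155 lower genes; over all genes tested, 1799 lay above (9.98%) and 1766 below (9.8%). The higher genes went from a median of 30 to 139.9 CPM, with a median log2 fold change of 2.22, and 70 were protein coding. The lower genes went from a median of 43.8 to 8.22 CPM, with a median of -2.52, and 138 were protein coding.

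The number of called genes depended on single libraries and on the fit. It was 16 without 1w pw1 replicate 1, 42 without 0w library a, 42 without 0w library b and 405 without 0w library c, and 248 and 338 without 1w pw1 replicates 2 and 3. With only the 6 libraries in the fit it was 0 by the same edgeR test, with 1664 genes at an unadjusted p under 0.05. With surrogate variables in the model, which the study's methods use, it was 14 with 2 of them and 8 with the estimated number. Of the 55 called genes that the naming rule picked, 9 kept their call without 1w pw1 replicate 1. These were Fam213a, Ifitm3, Spink12, Abcf2, Ucp2, Col14a1, Ppl, Fam69b and Trp53inp1. None of the 55 changed direction in any alternative.

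**Figure D1:**
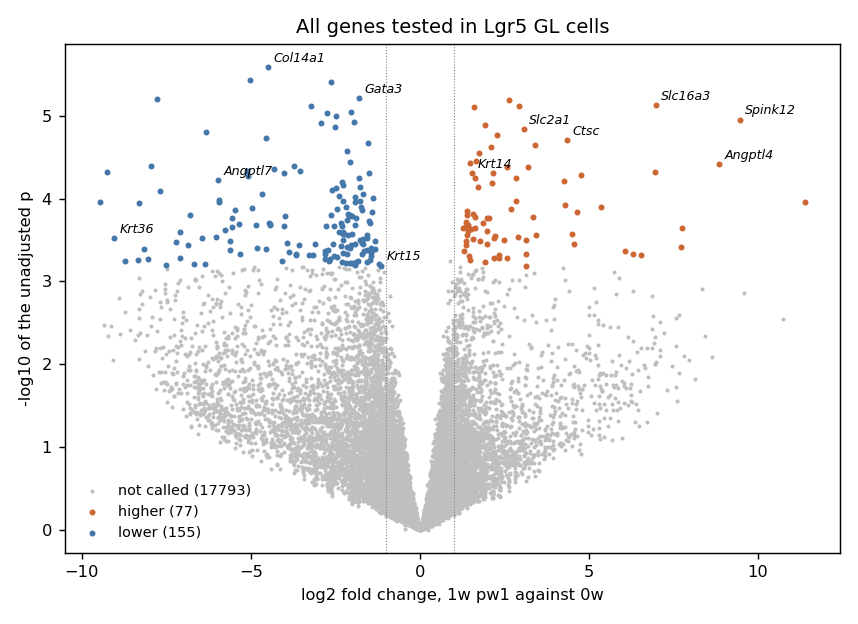
Each point is 1 of the 18025 genes tested in Lgr5 GL cells, with the log2 fold change of 1w pw1 against 0w on the x axis and -log10 of the unadjusted p on the y axis, and the dotted lines mark log2 fold changes of 1 in both directions. The 77 genes called higher (orange) and the 155 called lower (blue) form a narrow band at the top, with no gap to the genes that were not called.

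**Figure D2:**
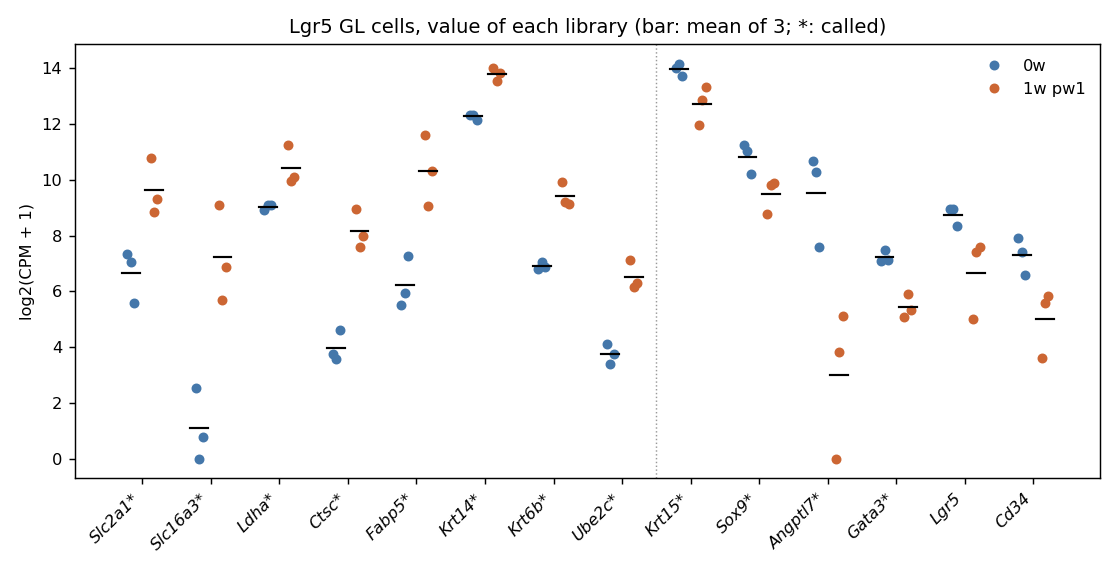
Each point is the log2(CPM + 1) of 1 library of Lgr5 GL cells for the gene named on the x axis, at 0w (blue) and 1w pw1 (orange), and each black bar is the mean of the 3 libraries. Genes left of the dotted line, from Slc2a1 to Ube2c, lie higher in all 3 wounded libraries and those right of it, from Krt15 to Cd34, lie lower in all 3; Lgr5 and Cd34, without an asterisk, were not called.

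Keratin and hemidesmosome genes were called in both directions after wounding. Krt14 (chr11:100203162-100207548), the type I keratin of basal epidermis, was read at 5153, 5190.4 and 4589 CPM at 0w and 16476, 12093 and 14649 CPM at 1w pw1. It rose (log2 fold change ± SE 1.53 ± 0.29, adjusted p = 0.0197), and the wounded libraries all lay far above the unwounded ones. Krt15 (chr11:100131758-100135928), the type I keratin of bulge and basal stem cells, was read at 16678, 18382 and 13508 CPM at 0w and 4036, 7503 and 10190.4 CPM at 1w pw1. It fell (log2 fold change -1.16 ± 0.28, adjusted p = 0.0498), without overlap between the groups but with the largest p among the called genes named here. Krt5, the type II keratin that pairs with both, stood at 4100.1, 5393 and 4219.8 CPM at 0w and 4504, 5481 and 5841 CPM at 1w pw1, and these values overlapped (log2 fold change 0.21 ± 0.22, adjusted p = 0.651).

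Of the 4 wound keratins, Krt6b was called higher, against 0.427% over all genes, and Krt6a, Krt16 and Krt17 were not called. The list had a median log2 fold change of 1.53 against -0.08 over all genes tested. Krt6b (chr15:101676023-101680287), a keratin of repairing and suprabasal epidermis, was read at 109, 132 and 115 CPM at 0w and 965, 593 and 563 CPM at 1w pw1 (log2 fold change 2.57 ± 0.61, adjusted p = 0.0454). Krt6a, its close paralogue, was read at 1627, 1852 and 701 CPM at 0w and 2583, 1939 and 2922 CPM at 1w pw1, all 3 wounded libraries above the unwounded ones, with log2 fold change 0.83 ± 0.40, adjusted p = 0.275. Reads that fit both genes can be divided between them in ways the counts do not show. Krt17 was read at 3247, 2353 and 1730.1 CPM at 0w and 1708, 4233 and 6960.2 CPM at 1w pw1, and here the wounded library 1 fell among the unwounded values. Krt16 overlapped as well, at 72.8, 92.8 and 302 CPM at 0w and 1348, 217 and 630.03 CPM at 1w pw1.

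Lama3 and Lamb3, which encode laminin chains of the epidermal basement membrane, were not called. Lama3 was read at 230.1, 206 and 109.9 CPM at 0w and 351, 186 and 154 CPM at 1w pw1. Lamb3 was read at 706, 634 and 366 CPM at 0w and 461, 225 and 403 CPM at 1w pw1, both with overlapping groups (0.34 and -0.65, adjusted p = 0.654 and 0.247). Dst, the plakin that ties keratin filaments to hemidesmosomes, fell from 722, 899.8 and 323 CPM to 253, 203 and 221 CPM (log2 fold change -1.52 ± 0.32, adjusted p = 0.0327). Col17a1, the transmembrane collagen of hemidesmosomes, was read at 3000.1, 3069 and 1272 CPM at 0w and 1113, 911 and 1120.2 CPM at 1w pw1, below in all 3 libraries but not called (log2 fold change -1.22 ± 0.32, adjusted p = 0.0634). In the list of 12 basal epidermis and hemidesmosome genes, Krt15 and Dst were the members called lower, against 0.86% over all genes. The median was -0.01.

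Genes of the lower follicle were read at lower levels 1 week after the wound. Of 26 genes of the bulge and hair germ, 21 had a log2 fold change below 0. In 12 of them all 3 wounded libraries lay below all unwounded ones, where 9.8% of all genes did. Sox9 and Angptl7 were called lower and none higher, against 0.86% called lower over all genes. The median over the list was -0.87, and it lay between -1.22 and -0.39 in the 23 alternative fits. The called members numbered 0 without unwounded library a, unwounded library b or wounded replicate 1, 4 without unwounded library c, 2 without wounded replicate 2 and 3 without wounded replicate 3. Together the 26 genes summed to 10721, 9479 and 5527 CPM at 0w and 2969, 4329.5 and 6344 CPM at 1w pw1, so that 1w pw1 replicate 3 reached above the lowest unwounded library. In these bulk samples, fewer cells with such transcripts and less RNA per cell cannot be told apart.

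Sox9 (chr11:112782224-112787760), a transcription factor that HF stem cells require, was read at 2419, 2117 and 1172 CPM at 0w and 432, 897 and 946 CPM at 1w pw1. It fell (log2 fold change -1.33 ± 0.30, adjusted p = 0.038), with the lowest unwounded library, c, still above the highest wounded one. Angptl7 (chr4:148495183-148500460), a secreted angiopoietin-like protein, was read at 1615, 1229.8 and 194 CPM at 0w and 0, 13 and 34 CPM at 1w pw1. The fall (log2 fold change -5.97 ± 1.14, adjusted p = 0.0212) was deep in every wounded library, although unwounded library c began at a much lower level than a and b. Lgr5 itself (chr10:115450311-115587780) was read at 499, 494 and 321 CPM at 0w and 31.3, 168 and 191 CPM at 1w pw1 and was not called (log2 fold change -1.75 ± 0.52, adjusted p = 0.0919). All 3 wounded libraries lay under the unwounded ones, with replicate 1 lowest. Cd34 (chr1:194938819-194961279), a surface protein of bulge cells, was read at 242, 169 and 94.1 CPM at 0w and 11.1, 46.4 and 56.4 CPM at 1w pw1, again below in every library and not called (log2 fold change -2.15 ± 0.61, adjusted p = 0.0836). Lhx2, a LIM-homeodomain factor of HF stem cells, was read at 197, 157 and 171 CPM at 0w and 21.2, 96.2 and 72.7 CPM at 1w pw1 with the same order (log2 fold change -1.47 ± 0.46, adjusted p = 0.102).

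The list of hair shaft and inner root sheath genes had the lowest median of all lists, -1.79 over 27 tested genes. Gata3 and Krt36 were called lower and none higher, against 0.86% called lower over all genes. In 7 genes all wounded libraries lay below, against 9.8% of all genes. The list summed to 2274, 787 and 590.03 CPM at 0w and 102, 326 and 2324 CPM at 1w pw1. These sums overlapped, with wounded replicate 3 the highest. Gata3 (chr2:9857078-9890034), a transcription factor of the inner root sheath, was read at 135, 178 and 139.9 CPM at 0w and 32.9, 59.4 and 39.2 CPM at 1w pw1 and fell with log2 fold change -1.79 ± 0.28, adjusted p = 0.0136. Its values were even within each group. Krt36, a hair keratin, was read at 201, 0 and 151 CPM at 0w and 0.326, 0 and 0.181 CPM at 1w pw1; library b at 0w was at 0 like the wounded ones, so the groups overlapped and the call rests on libraries a and c. Krt36 had 3 or fewer counts in the wounded group, and its ratio of 0w to 1w pw1 was 565 (95% counting interval 156 to 4673). Krt75, the keratin of the companion layer, was read at 53.3, 45.2 and 55.8 CPM at 0w and 1.3, 10.8 and 5.06 CPM at 1w pw1 and lay below in all libraries without a call (log2 fold change -3.26 ± 0.95, adjusted p = 0.0874). Most other members were near the floor in both groups, and Krt79, a keratin of the upper follicle duct, ranged from 9.46 to 2153 CPM within the wounded group alone.

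In the Wnt pathway list, which lay mostly below 0, Wnt5a was called higher, against 0.427% called higher over all genes. Wnt5a, a ligand that mainly acts through non-canonical routes, was read at 3.18, 4.77 and 8.62 CPM at 0w and 91.3, 18.7 and 34.7 CPM at 1w pw1 and rose (log2 fold change 3.15 ± 0.74, adjusted p = 0.0434). Of the 30 genes, 23 had a log2 fold change at or below 0, and 7 lay below in all 3 libraries, against 9.8% of all genes. The median of the list was -0.77 with no member called lower. Lgr4, the paralogue of Lgr5, was read at 916, 871 and 1110.4 CPM at 0w and 229, 656 and 402 CPM at 1w pw1 (log2 fold change -1.17 ± 0.35, adjusted p = 0.0938), all 3 wounded libraries below. Wls, which carries Wnt proteins to the cell surface, was read at 281, 282 and 266 CPM at 0w and 159, 294 and 210.4 CPM at 1w pw1 and overlapped. Wnt6 and Dvl1, a ligand and an intracellular transducer, are not on the list and were picked out after their values were seen. Both were called lower, and they are no part of the list's counts. Wnt6 was read at 6.35, 2.91 and 6.2 CPM at 0w and 0.326, 0.566 and 0.181 CPM at 1w pw1. Dvl1 was read at 56.5, 91.7 and 62.7 CPM at 0w and 25.4, 30 and 22.8 CPM at 1w pw1.

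Glycolysis was the list with the most called genes. Of 27 glycolysis and hypoxia response genes, 7 were called higher and none lower, against 0.427% called higher over all genes, and 14 had all wounded libraries above, against 9.98%. The median was 1.35, and it lay between 0.39 and 1.54 in the alternative fits. The summed level was 3327, 3454 and 3562 CPM at 0w and 14374, 5809 and 6787 CPM at 1w pw1. Replicate 1 at 1w pw1 exceeded the other wounded libraries by far. Without it no gene of the list was called and the median was 0.51. Without unwounded library a or b, 2 were called (Slc2a1 and Slc16a3), without library c 6, and without wounded replicate 2 or 3 8 each.

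Slc2a1 (chr4:119108711-119137983), which encodes the glucose transporter Glut1, was read at 163, 132 and 46.9 CPM at 0w and 1775, 455 and 639 CPM at 1w pw1. It rose (log2 fold change 3.07 ± 0.52, adjusted p = 0.0136), and without 1w pw1 replicate 1 the log2 fold change was 2.26 (adjusted p = 0.0561). Slc16a3 (chr11:120948480-120960868), the lactate exporter Mct4, was read at 4.76, 0 and 0.689 CPM at 0w and 549, 50.4 and 117 CPM at 1w pw1. From near absence it rose in all 3 wounded libraries (log2 fold change 6.98 ± 1.12, adjusted p = 0.0136), and without replicate 1 the change was 5.49 (adjusted p = 0.0579). Ldha (chr7:46841475-46855627), the lactate dehydrogenase subunit, was read at 479, 545 and 551 CPM at 0w and 2417, 1004 and 1089 CPM at 1w pw1 (log2 fold change 1.52 ± 0.33, adjusted p = 0.0333). Pkm, pyruvate kinase, was read at 545, 606 and 592 CPM at 0w and 2238, 1137 and 1164 CPM at 1w pw1 (log2 fold change 1.38 ± 0.29, adjusted p = 0.0307). Both enzymes were steady across the unwounded libraries, and wounded replicate 1 stood well above the other wounded libraries. Eno1, enolase, was read at 324, 370.02 and 468 CPM at 0w and 1708, 863 and 998 CPM at 1w pw1 (log2 fold change 1.62 ± 0.35, adjusted p = 0.033). Its near-identical gene copy Eno1b was called higher too, so that reads shared by both could be assigned to either. Pfkl, phosphofructokinase of liver type, was read at 44, 25.9 and 42.7 CPM at 0w and 354, 84.3 and 87.1 CPM at 1w pw1 (log2 fold change 2.22 ± 0.49, adjusted p = 0.0364). Car9, the hypoxia-induced carbonic anhydrase, was read at 0, 0.208 and 0 CPM at 0w and 52.5, 3.4 and 14.1 CPM at 1w pw1, with 1 count in the whole unwounded group, a ratio of 287 (95% counting interval 51 to 11368).

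Other members of the list were not called. Hif1a, the hypoxia-inducible factor subunit, was read at 392, 332 and 246 CPM at 0w and 874, 434 and 489 CPM at 1w pw1, above in all libraries and not called (log2 fold change 0.89 ± 0.33, adjusted p = 0.161). Vegfa and Ndrg1, both hypoxia-induced, stood at 56.4, 6.23 and 4.52 CPM and 216, 17.5 and 28.7 CPM in the wounded libraries against 9.3, 7.06 and 9.99 CPM and 75.8, 81.1 and 33.8 CPM in the unwounded ones, high in replicate 1 alone. Hk2, the inducible hexokinase, was read at 94.2, 39 and 73.1 CPM at 0w and 84.2, 38.5 and 27.8 CPM at 1w pw1 (log2 fold change -0.45 ± 0.42, adjusted p = 0.584). Angptl4, a secreted inhibitor of lipoprotein lipase outside this list, was at 0 in every unwounded library and at 13, 17 and 12.7 CPM in the wounded ones, which is at least 54.6-fold higher than the floor of 3 counts over the unwounded group.

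The core of the hypoxia response element, ACGTG, was searched on both strands in the 300 bases around a start site (250 before and 50 after) of the RefSeq windows, GRCm38.p6. It stood in 4 of the 7 called glycolysis and hypoxia genes (57.1%), in 25.1% of the 11169 tested genes with a window and in 19.7% of all 27025 windows, each symbol with its first listed start. Among all called genes it stood in 26.8% of 56 higher and 28.4% of 116 lower ones. A palindromic CACGTG counts once for each strand. The 150 bases before the start of these 4 genes are printed 5′ to 3′, with the matches in capitals, to show where the matches stand.
Slc16a3, chr11:120948917-120949066, plus strand: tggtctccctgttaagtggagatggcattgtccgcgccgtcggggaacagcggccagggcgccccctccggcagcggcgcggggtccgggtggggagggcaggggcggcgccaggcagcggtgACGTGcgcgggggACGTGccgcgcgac
Slc2a1, chr4:119108595-119108744, plus strand: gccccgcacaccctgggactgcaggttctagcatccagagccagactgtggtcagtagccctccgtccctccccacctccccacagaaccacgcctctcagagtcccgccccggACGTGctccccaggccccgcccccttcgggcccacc
Ldha, chr7:46845654-46845803, plus strand: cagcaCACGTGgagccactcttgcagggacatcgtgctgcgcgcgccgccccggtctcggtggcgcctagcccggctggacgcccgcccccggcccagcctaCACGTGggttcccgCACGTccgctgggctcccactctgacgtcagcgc
Car9, chr4:43506876-43507025, plus strand: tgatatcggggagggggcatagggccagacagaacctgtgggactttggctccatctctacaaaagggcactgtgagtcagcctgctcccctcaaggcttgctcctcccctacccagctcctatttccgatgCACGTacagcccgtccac
Slc16a3 held 2 matches, 27 and 14 bases before the start, Slc2a1 held 1 at 36, Ldha held 5 between 145 and 34, and Car9 held 1 at 18. The windows of Pkm, Eno1 and Pfkl held none. For the other motifs searched, the share among the higher and the lower called genes was 7.14% and 1.72% for the AP-1 site TGANTCA (5.23% of tested genes), 35.7% and 30.2% for CCAAT (38.2%), 14.3% and 5.17% for TTTGAA (12.3%) and 10.7% and 2.59% for TATAAA (7.57%). These are shares of windows that contain letters, not of sites that a factor was seen to bind.

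Genes of G2 and mitosis were read at higher levels after the wound, and those of G1 and S phase overlapped between the groups. All 30 genes of G2 and mitosis had a log2 fold change above 0, with a median of 1.52. In all libraries 18 lay above, against 9.98% of all genes. Of the list 1 gene, Ube2c, was called higher, against 0.427% over all genes. Without unwounded library c, the highest in this list among the unwounded ones, 5 were called (Top2a, Cdk1, Aurkb, Kif23 and Hmmr) and the median was 2.15, and without library a, library b or wounded replicate 1 none was called. Their sum was 363, 395 and 913 CPM at 0w and 2362, 1646 and 1507 CPM at 1w pw1, without overlap. Ube2c, the ubiquitin-conjugating enzyme of the anaphase-promoting complex, was read at 16.1, 9.55 and 12.4 CPM at 0w and 139, 70.2 and 77.4 CPM at 1w pw1 (log2 fold change 2.91 ± 0.65, adjusted p = 0.0367). Ccnb2, cyclin B2, was read at 21.6, 28.6 and 59.6 CPM at 0w and 255, 143 and 137 CPM at 1w pw1 (log2 fold change 2.29 ± 0.67, adjusted p = 0.0874). Cdk1, the mitotic kinase, was read at 10.2, 7.68 and 85.8 CPM at 0w and 201, 175 and 102 CPM at 1w pw1 (log2 fold change 2.22 ± 0.84, adjusted p = 0.169). Unwounded library c was the highest of its group for both, and for Cdk1 it lay several-fold above a and b. Among 25 genes of G1 and S phase none was called, the median was 0.81 and 1 lay above in all libraries, a smaller share than the 9.98% of all genes. Their sum, 571, 596 and 1521 CPM at 0w and 1273, 1927 and 1089 CPM at 1w pw1, overlapped because library c at 0w exceeded wounded replicates 1 and 3. Rrm1, a ribonucleotide reductase subunit, was read at 38.3, 43.8 and 114 CPM at 0w and 146, 179 and 157 CPM at 1w pw1. Pcna, the replication clamp, was read at 74.4, 53.5 and 139 CPM at 0w and 128, 217 and 119.6 CPM at 1w pw1. Cdkn1b, which encodes the cell cycle inhibitor p27 and was on neither list, was called lower, at 271, 286 and 314 CPM at 0w and 69.8, 138 and 113 CPM at 1w pw1 (log2 fold change -1.45 ± 0.34, adjusted p = 0.0438).

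Ribosomal protein and mitochondrial respiration genes were read at slightly higher levels after the wound, nearly all of them in the same direction. All 75 cytoplasmic ribosomal protein genes had a log2 fold change above 0, with a median of 0.87. In all libraries 46 lay above, against 9.98% of all genes, and 2 were called higher, against 0.427%. The 75 genes summed to 7965, 8561 and 13565 CPM at 0w and 20922, 15928 and 19289.7 CPM at 1w pw1. Rps18 was read at 166, 173 and 290.2 CPM at 0w and 588, 498 and 582 CPM at 1w pw1 (log2 fold change 1.41 ± 0.30, adjusted p = 0.0327). Rps2 was read at 108, 155 and 139 CPM at 0w and 441, 273 and 352 CPM at 1w pw1 (log2 fold change 1.40 ± 0.31, adjusted p = 0.0361). Both encode proteins of the small subunit and have many processed pseudogenes that share their reads. Of 48 nuclear genes for the respiratory chain, 46 lay above 0, with a median of 0.74. In all libraries 30 lay above, against 9.98% of all genes. The 1 called gene was Cox6a1, a cytochrome c oxidase subunit read at 193, 179 and 215 CPM at 0w and 572, 390.04 and 484 CPM at 1w pw1 (log2 fold change 1.30 ± 0.30, adjusted p = 0.0419). Atp5b, the ATP synthase β subunit, was read at 671, 792 and 789.9 CPM at 0w and 1467, 1241 and 1418 CPM at 1w pw1; its adjusted p of 0.047 passed, but its log2 fold change of 0.87 ± 0.21 was under the limit of 1. The 15 genes of the mitochondrial genome had a median of 0.35 and no call, with sums of 20382, 23112 and 40336 CPM and 35120.1, 29158 and 32049.8 CPM that overlapped. Among 25 genes of translation and ribosome biogenesis, the median was 0.60 and Eif5a, a translation factor, was called higher, at 341, 402 and 607 CPM at 0w and 1240.4, 936 and 1100.1 CPM at 1w pw1 (log2 fold change 1.28 ± 0.28, adjusted p = 0.033). Mrpl20, Tomm40, Timm23 and Timm50, which encode a mitochondrial ribosomal protein and mitochondrial protein import components, were called higher as well. Mrpl20 was read at 42, 27.6 and 39.3 CPM at 0w and 115, 120.01 and 110.4 CPM at 1w pw1 (log2 fold change 1.67 ± 0.30, adjusted p = 0.0197). Tomm40 was read at 39, 53.3 and 61.3 CPM at 0w and 169.9, 115 and 142 CPM at 1w pw1 (log2 fold change 1.48 ± 0.27, adjusted p = 0.0197).

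These lists are made of short transcripts, and the change between the groups followed transcript length over all genes. In 5 equal groups of the 17936 genes with a known length, from the shortest (56 to 1294 bases) to the longest (4863 bases and more), the median log2 fold change was 0.53, 0.02, -0.12, -0.31 and -0.51. The called higher genes numbered 18, 29, 19, 7 and 4 in these groups and the called lower genes 6, 21, 26, 41 and 60. The median longest transcript was 2129 bases among the higher genes and 4252 among the lower ones, against 2893 over all. With a smooth trend on length removed, 124 genes were called, 67 higher and 57 lower, of which 105 were among the 232. The medians of the lists then became 0.74 for ribosomal proteins, 0.60 for the respiratory chain, 1.86 for G2 and mitosis, 1.53 for glycolysis, -0.48 for bulge and germ, -1.59 for hair shaft and -0.39 for the Wnt pathway, each of the same sign as before. Rps18, Rps2, Cox6a1, Eif5a, Eno1, Ldha, Gpx1, Nqo1, Tpm2, Sprr2a1, Dst, Sox9, Hspa1a and Rpl14-ps1 were not called in that fit. Whether the trend lies in the cells or in the RNA and its amplification was not tested.

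**Figure D3:**
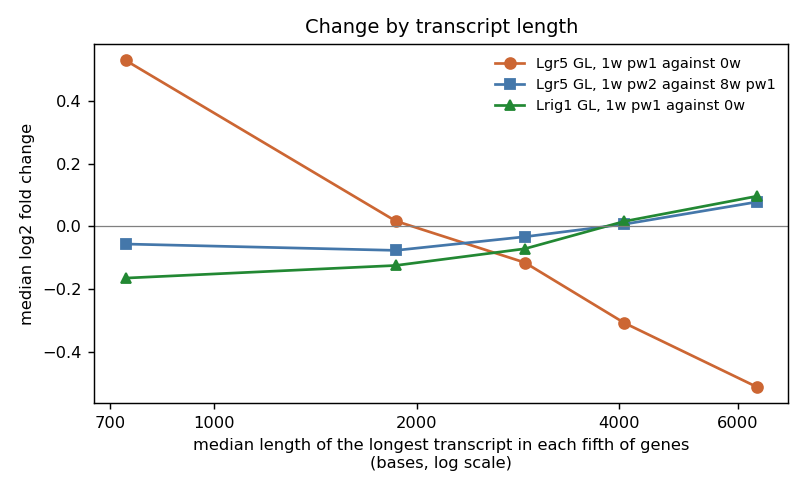
The median log2 fold change of all genes is plotted against the median length of the longest transcript, in bases on a log axis, for 5 equal groups of genes in 3 comparisons. In Lgr5 GL cells at 1w pw1 against 0w (orange) it runs from 0.53 for the shortest to -0.51 for the longest, while 1w pw2 against 8w pw1 (blue) stays between -0.08 and 0.08 and Lrig1 GL at 1w pw1 against 0w (green) between -0.17 and 0.10.

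Lists of the upper follicle and of differentiating epidermis held few called genes, with members on both sides of 0, and their medians kept their sign in 21 and 20 of the 23 alternative fits. In the list of 19 upper follicle and sebaceous genes, the median was -0.60 and 1 gene, Fabp5, was called higher, against 0.427% over all genes. Fabp5, the epidermal fatty acid binding protein, was read at 44.2, 60.2 and 154 CPM at 0w and 3127, 529.9 and 1269 CPM at 1w pw1 and rose (log2 fold change 4.26 ± 0.82, adjusted p = 0.0212), and a neighbouring copy of the gene, Fabp5l2, was called with it. Ly6a, which encodes Sca-1, a surface protein of the upper follicle and IFE, was read at 3.18, 3.53 and 58.6 CPM at 0w and 833, 205 and 316 CPM at 1w pw1; it was not called (log2 fold change 4.41 ± 1.16, adjusted p = 0.0634) and was picked out after its values were seen. Lrig1, the marker of the junctional zone, was read at 119, 77.8 and 38.6 CPM at 0w and 73.7, 121 and 80.1 CPM at 1w pw1. Gata6, a marker of the sebaceous duct lineage, was read at 14.5, 4.77 and 0.345 CPM at 0w and 0.326, 0.566 and 0.181 CPM at 1w pw1. Lrig1 overlapped fully. Gata6 had 64, 23 and 1 counts in the unwounded libraries and 3 in the whole wounded group, a ratio of 0w to 1w pw1 of 25.1 (95% counting interval 8.3 to 124), and it was not called (log2 fold change -4.25 ± 1.45, adjusted p = 0.137).

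Among 23 genes of interfollicular differentiation, the median was -0.48 and Sprr2a1 was called higher, against 0.427% called higher over all genes. In all libraries 5 lay above and 3 below, against 9.98% and 9.8% of all genes. Sprr2a1, a cornified envelope precursor, was read at 1.59, 0 and 1.38 CPM at 0w and 208, 12.5 and 7.23 CPM at 1w pw1 (log2 fold change 6.29 ± 1.47, adjusted p = 0.0434), most of it in replicate 1. Krtdap, a secreted peptide of differentiating keratinocytes, was read at 292, 167 and 93.7 CPM at 0w and 931, 663 and 1201 CPM at 1w pw1 (log2 fold change 2.34 ± 0.60, adjusted p = 0.0575). Lgals7, galectin-7, was read at 466, 412 and 434 CPM at 0w and 1145, 919 and 1271 CPM at 1w pw1 (log2 fold change 1.35 ± 0.35, adjusted p = 0.0634), both above in all libraries without a call. The suprabasal keratins Krt1 and Krt2, picked out after their values were seen, were not called. Krt1 was read at 14.1, 25.3 and 8.96 CPM at 0w and 315, 47 and 353 CPM at 1w pw1, higher in all 3 wounded libraries. Krt2 was read at 786, 483 and 15.9 CPM at 0w and 4.24, 2.26 and 6.87 CPM at 1w pw1, lower in all 3. Krt10, which pairs with them, overlapped, at 922, 297 and 80.3 CPM at 0w and 195, 27.2 and 60.7 CPM at 1w pw1. Ppl, outside this list, encodes periplakin, a plakin of desmosomes and the cornified envelope, and fell from 93.5, 100.03 and 49.3 CPM to 16, 9.62 and 13.2 CPM (log2 fold change -2.63 ± 0.40, adjusted p = 0.0136).

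The remaining genes with the smallest p among those higher after wounding were of several kinds. Fam213a, a peroxiredoxin-like protein, was read at 37.2, 23.2 and 24.8 CPM at 0w and 139.6, 227 and 163 CPM at 1w pw1 (log2 fold change 2.63 ± 0.42, adjusted p = 0.0136), and without 1w pw1 replicate 1 the change was 2.77 (adjusted p = 0.0217). Ifitm3, an interferon-inducible membrane protein, was read at 39.7, 50 and 52 CPM at 0w and 275, 396 and 416 CPM at 1w pw1 (log2 fold change 2.94 ± 0.47, adjusted p = 0.0136), with 3.10 (adjusted p = 0.0217) without replicate 1. Both were even across the wounded libraries, unlike the glycolytic genes. Ctsc (chr7:88278085-88310888), the lysosomal protease cathepsin C, was read at 12.5, 11 and 23.4 CPM at 0w and 494, 191 and 255 CPM at 1w pw1 (log2 fold change 4.34 ± 0.75, adjusted p = 0.0154). Tubb6, a β-tubulin, was read at 20.9, 24.5 and 53.8 CPM at 0w and 559, 225 and 257 CPM at 1w pw1 (log2 fold change 3.40 ± 0.60, adjusted p = 0.0162). Fhl2, a LIM-domain protein at focal adhesions and in the nucleus, was read at 13.8, 17.6 and 14.1 CPM at 0w and 268, 67.9 and 84 CPM at 1w pw1 (log2 fold change 3.20 ± 0.59, adjusted p = 0.0197). In these, replicate 1 was highest and the other wounded libraries were still several-fold above the unwounded ones.

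Spink12, a Kazal-type protease inhibitor, had 1 count in the unwounded group and 38.5, 66.2 and 298 CPM in the wounded libraries, with a ratio of 1w pw1 to 0w of 1102 (95% counting interval 305 to 9107). Ucp2, a mitochondrial carrier, was read at 123, 151 and 125 CPM at 0w and 570.5, 561 and 819 CPM at 1w pw1 (log2 fold change 2.29 ± 0.39, adjusted p = 0.0147). Abcf2, an ATP-binding cassette protein without a membrane domain, was read at 26.8, 42.1 and 26.5 CPM at 0w and 90, 125 and 145 CPM at 1w pw1 (log2 fold change 1.91 ± 0.32, adjusted p = 0.0136). Tspan3, a tetraspanin, was read at 92.1, 107 and 116 CPM at 0w and 409, 358 and 287 CPM at 1w pw1 (log2 fold change 1.74 ± 0.31, adjusted p = 0.018). In all of these the groups stood apart.

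Among the genes lower after wounding were structural, signalling and chromatin genes. Col14a1, a fibril-associated collagen, was read at 30.9, 29.3 and 17.2 CPM at 0w and 0.979, 1.7 and 0.904 CPM at 1w pw1 (log2 fold change -4.49 ± 0.66, adjusted p = 0.0136). Fras1, a matrix protein of the epidermal basement membrane, was read at 24.7, 21.2 and 20 CPM at 0w and 1.63, 4.53 and 1.45 CPM at 1w pw1 (log2 fold change -3.21 ± 0.52, adjusted p = 0.0136). Both nearly vanished from the wounded libraries. Nr3c1, the glucocorticoid receptor, was read at 236, 214 and 245 CPM at 0w and 45.3, 39.1 and 71 CPM at 1w pw1 (log2 fold change -2.15 ± 0.38, adjusted p = 0.0176). Mafk, a small Maf transcription factor, was read at 62.2, 50 and 50 CPM at 0w and 6.85, 6.79 and 14.6 CPM at 1w pw1 (log2 fold change -2.49 ± 0.41, adjusted p = 0.0136). Trp53inp1, a p53-induced gene, was read at 110.5, 79.9 and 89.6 CPM at 0w and 21.9, 18.1 and 9.22 CPM at 1w pw1 (log2 fold change -2.52 ± 0.43, adjusted p = 0.0136). Their unwounded values were close to each other, and the wounded values lay far under them in every library.

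Rif1, a factor of replication timing and DNA repair choice, was read at 44.9, 24.3 and 28.3 CPM at 0w and 4.57, 4.53 and 3.8 CPM at 1w pw1 (log2 fold change -2.92 ± 0.49, adjusted p = 0.0136). Ackr4, a scavenging chemokine receptor, was read at 51.7, 59.4 and 90.3 CPM at 0w and 9.13, 7.93 and 12.3 CPM at 1w pw1 (log2 fold change -2.76 ± 0.45, adjusted p = 0.0136). Rsrp1, an arginine- and serine-rich protein, was read at 275, 241 and 186 CPM at 0w and 52.8, 67.9 and 59.8 CPM at 1w pw1 (log2 fold change -1.96 ± 0.33, adjusted p = 0.0136). Unc45a, a myosin chaperone, was read at 111, 143 and 102 CPM at 0w and 36.2, 41.9 and 45.7 CPM at 1w pw1 (log2 fold change -1.52 ± 0.27, adjusted p = 0.016). Paqr6, a membrane progestin receptor family member, was read at 29, 47.7 and 19.3 CPM at 0w and 0.326, 0.566 and 2.71 CPM at 1w pw1 (log2 fold change -4.54 ± 0.79, adjusted p = 0.0152). Fbxo33, an F-box protein, was read at 14.5, 13.3 and 36.9 CPM at 0w and 0.326, 0.566 and 0.904 CPM at 1w pw1 (log2 fold change -5.02 ± 0.76, adjusted p = 0.0136). Fam69b was at 5.9, 11 and 3.1 CPM at 0w and at 0 in every wounded library, at least 25.1-fold lower with the floor of 3 counts over the group. Scnn1b, a subunit of the epithelial sodium channel, had 1 count in the wounded group, against 8.17, 14.5 and 6.2 CPM at 0w, with a ratio of 0w to 1w pw1 of 106 (95% counting interval 18.7 to 4219). Of all called genes, 5 higher and 15 lower ones carry only a clone-style name.

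Signalling and stress lists held few calls. No member was called among the 20 immediate early and AP-1 genes (median 0.10) and the 22 interferon and antigen presentation genes (0.14). The same held for the 25 TGF-β and BMP genes (0.05), the 21 EGF receptor pathway genes (-0.08) and the 25 cholesterol and fatty acid genes (-0.02). It held too for the 19 tested entries of the cytokine, chemokine and alarmin list (0.66), where Il1f9 was entered more than once. Each of these medians changed sign in at least 1 alternative fit, and that of the cytokine list was -0.62 without wounded replicate 1. Jun, a subunit of AP-1, was read at 183, 229 and 143 CPM at 0w and 128, 232 and 282 CPM at 1w pw1. Junb, another subunit, was read at 342, 333 and 276 CPM at 0w and 592, 367 and 294 CPM at 1w pw1, and both overlapped. S100a8, an alarmin of stressed keratinocytes and neutrophils, was read at 4.99, 2.08 and 4.14 CPM at 0w and 331, 55.5 and 79.3 CPM at 1w pw1; it lay above in all libraries and was not called (adjusted p = 0.186). Ccl2, a monocyte chemokine, was read at 24.7, 45.7 and 43.4 CPM at 0w and 96.5, 16.4 and 25.3 CPM at 1w pw1 and overlapped. H2-D1, a class I antigen, was read at 276, 266 and 255 CPM at 0w and 317, 463 and 626 CPM at 1w pw1, above in all libraries without a call (log2 fold change 0.82 ± 0.27, adjusted p = 0.117). B2m, its light chain, was read at 179, 159 and 147 CPM at 0w and 105, 201 and 214 CPM at 1w pw1. Egfr, the receptor, was read at 119, 108 and 80.3 CPM at 0w and 102, 82.7 and 84.8 CPM at 1w pw1. Spry2, an inhibitor of its pathway, was read at 198, 176 and 228 CPM at 0w and 176, 223 and 187 CPM at 1w pw1, and both overlapped. Id2, a BMP target, was read at 294, 357 and 115 CPM at 0w and 75.3, 94 and 153 CPM at 1w pw1. Tgfbi, a TGF-β-induced matrix protein, was read at 832, 655 and 434 CPM at 0w and 1101, 805 and 1015 CPM at 1w pw1.

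Of 20 NRF2 antioxidant genes, 18 had a log2 fold change above 0, and the median was 0.66 against -0.08 over all genes tested. Gpx1 and Nqo1 were called higher. Over all genes, 0.427% were called higher and 0.86% lower, which is the background for each list in this paragraph. Gpx1, glutathione peroxidase, was read at 238, 249.9 and 222 CPM at 0w and 703, 468 and 631 CPM at 1w pw1 (log2 fold change 1.34 ± 0.29, adjusted p = 0.0328). Nqo1, a quinone reductase, was read at 18.8, 6.23 and 8.27 CPM at 0w and 60, 40.2 and 68.7 CPM at 1w pw1 (log2 fold change 2.34 ± 0.55, adjusted p = 0.0456). Of 30 actin and junction genes, 10 lay above in all libraries, against 9.98% of all genes, and the median was 0.56. Tpm2, a tropomyosin, was called higher, at 61.5, 54.6 and 76.5 CPM at 0w and 346, 190.2 and 216 CPM at 1w pw1 (log2 fold change 1.97 ± 0.43, adjusted p = 0.0347). Actb, β-actin, was read at 3708, 3583 and 5523 CPM at 0w and 7831, 8371 and 6756 CPM at 1w pw1 (log2 fold change 0.84 ± 0.30, adjusted p = 0.144). The 31 genes of migration, proteases and matrix had a median of 0.22. Among 13 Notch genes Lfng, a glycosyltransferase that modifies Notch, fell from 40.4, 32.6 and 33.4 CPM to 7.83, 4.53 and 12.3 CPM (log2 fold change -2.08 ± 0.48, adjusted p = 0.0411). The receptor gene Notch1 overlapped, at 532, 569 and 375 CPM at 0w and 206, 539 and 384 CPM at 1w pw1. The ligand gene Jag1 overlapped too, at 297, 325 and 1080.5 CPM at 0w and 602, 512 and 216 CPM at 1w pw1. Among 24 genes of the unfolded protein response and chaperones (median 0.31), Hspa1a, an inducible heat shock protein, was called lower, at 79.2, 78 and 33.1 CPM at 0w and 15.3, 24.3 and 19.2 CPM at 1w pw1 (log2 fold change -1.70 ± 0.39, adjusted p = 0.039). Its near-identical copy Hspa1b was read at 156, 83.2 and 67.9 CPM at 0w and 50.2, 67.9 and 47.7 CPM at 1w pw1, and reads that match both copies can be assigned to either. The constitutive chaperone Hsp90ab1 was read at 695, 689.8 and 572 CPM at 0w and 896, 729.7 and 827 CPM at 1w pw1. Hspa8, likewise made without stress, was read at 234, 485 and 542 CPM at 0w and 373, 716 and 851 CPM at 1w pw1.

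Markers of other skin cell types carried no call, and each list summed to far less than the markers of epidermis in every library. Of 20 immune markers 6 were tested, with sums of 348 to 519 CPM at 0w and 232 to 502 CPM at 1w pw1, made up mainly of Epcam, which follicle keratinocytes also express, and in wounded replicate 1 of S100a8. Epcam was read at 509, 439 and 336 CPM at 0w and 95.9, 162 and 284 CPM at 1w pw1. Ptprc, the pan-leukocyte antigen, did not exceed 6.02 CPM in any library. H2-Ab1, a class II antigen gene of antigen-presenting cells, was read at 0, 0 and 0.689 CPM at 0w and 74.7, 0 and 1.81 CPM at 1w pw1 and was not called (log2 fold change 6.88 ± 2.23, adjusted p = 0.117). Its 229 counts in wounded replicate 1, the library on which most calls depend, stood against 2 counts in the whole unwounded group. Cd74, the invariant chain made with class II antigens, was at 0 in that library. The 11 fibroblast and dermal papilla markers summed to 925 to 1389 CPM at 0w and 410.4 to 714 CPM at 1w pw1, lower in every wounded library, with Sparc and Col6a1 as the main part. Sparc was read at 768, 947 and 376 CPM at 0w and 399, 194 and 416 CPM at 1w pw1. Col6a1 was read at 373, 253 and 175 CPM at 0w and 20.5, 67.4 and 139 CPM at 1w pw1. Lum, a defining fibroblast marker, was at 0 in every unwounded library and at most 0.326 CPM in a wounded one, while Dcn reached 176 CPM in unwounded library c. The 5 melanocyte markers summed to 70 to 90.5 CPM at 0w and 11.4 to 20.4 CPM at 1w pw1. Mitf, the melanocyte master regulator, was read at 37.4, 75.5 and 49.3 CPM at 0w and 0.326, 11.3 and 6.69 CPM at 1w pw1 (log2 fold change -3.18 ± 0.79, adjusted p = 0.0525), and Pmel was at 0 in all wounded libraries. Endothelial, muscle, nerve and red cell markers, 5 of 15 tested, summed to 122 to 264 CPM and 204 to 424 CPM, mostly Acta2. The fibroblast and melanocyte sums were lower in the wounded libraries like the lower genes, Col14a1 among them, and H2-Ab1 and S100a8 were highest in wounded replicate 1. Their part in the results was not tested.

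At the later time points the genes called at 1w pw1 were read closer to their unwounded level. All of these comparisons use the same 3 unwounded libraries, so they are not independent of the selection. The 77 higher genes had a median log2 fold change of 2.22 at 1w pw1, 0.76 at 2w, 0.74 at 4w and 0.44 at 8w pw1 and 0.69 at 1w pw2. The 155 lower genes had medians of -2.52, -0.47, -0.57, -0.42 and -0.47. Part of such a return is built into a choice made on the 1w pw1 values.

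Slc2a1 had means of 114 ± 60.1 (SD, n = 3), 956 ± 715, 283 ± 123, 110.05 ± 35.6, 108 ± 20 and 105 ± 22.6 CPM in the order 0w, 1w, 2w, 4w, 8w pw1 and 1w pw2. From 4w on all libraries lay within the range of the unwounded ones, those at 1w pw2 included. Krt14 went from 14406 ± 2202 CPM at 1w pw1 to 4962 ± 2936 at 2w pw1 and 3983 ± 253 at 1w pw2, next to 4978 ± 337 at 0w. Krt15 had means of 6112 ± 1198 CPM at 2w, 3368 ± 991 at 4w and 19196 ± 1391 at 8w pw1, so it was lowest at 4w and above the unwounded mean at 8w. Lgr5 had means of 438 ± 101, 130.04 ± 86.2, 312 ± 87.6, 264 ± 58.7, 235 ± 142 and 315 ± 108 CPM, lowest at 1w pw1. Cd34, in the same order, had means of 168 ± 73.9, 38 ± 23.8, 28.1 ± 15.8, 29.6 ± 7.47, 69.7 ± 40.2 and 70.5 ± 34.4 CPM and stayed under the unwounded mean throughout. Ube2c had 22 ± 9.45 CPM at 2w and 33 ± 17.6 at 4w, then 10.2 ± 5.05 at 8w pw1 and 29.3 ± 21.9 at 1w pw2.

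**Figure D4:**
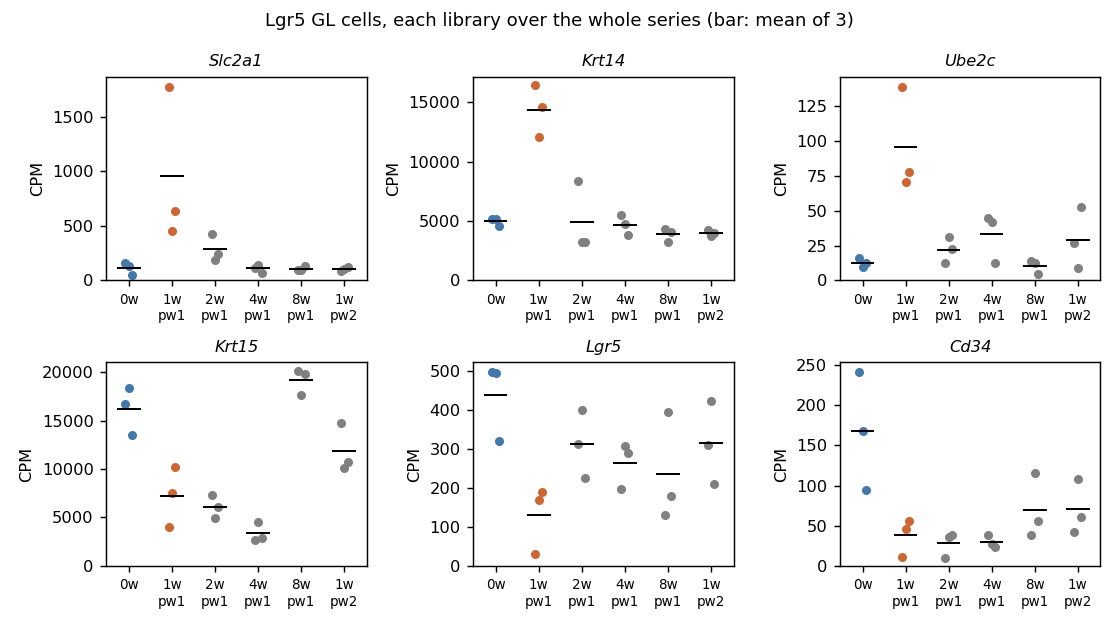
Each point is the CPM of 1 library of Lgr5 GL cells at the time point on the x axis, with the mean of 3 libraries as a bar and each panel on its own linear axis from 0. Slc2a1, Krt14 and Ube2c are highest at 1w pw1 (orange) relative to 0w (blue), Lgr5 is lowest there, and Krt15 and Cd34 are lower at 1w to 4w pw1 than at 0w.

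The second wound gives a comparison that shares no library with the first, 1w pw2 against 8w pw1. Of the 77 genes higher at 1w pw1, 54 had a log2 fold change above 0 there, with a median of 0.24, where 48.7% of all genes lay above 0. Of the 155 lower genes, 84 lay below 0, with a median of -0.14, where 51.3% of all genes did. None of the 232 had an adjusted p under 0.05 in that comparison. The number over all genes tested is not given here, so this is no result about the 232 in particular. The G2 and mitosis genes had a median of 2.12 there and the G1 and S genes 0.92. Glycolysis had -0.04, ribosomal proteins 0.05, bulge and germ 0.11 and wound keratins 0.04. The 8w pw1 level of both cell cycle lists was itself under 0w, with medians of -1.23 and -0.57 against 0w. At 1w pw2 against 0w their medians were 0.77 and 0.25. In 1w pw2 against 8w pw1, Slc2a1 had -0.04, Slc16a3 -0.74, Krt14 0.04 and Ube2c 1.54 as log2 fold changes. Whether these differ from the response to the first wound was not tested.

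Lrig1 GL cells, the progeny of the junctional zone of the upper follicle, were sampled at the same time points from other mice. In them, 31 of the 14306 genes tested were called at 1w pw1 against 0w, both directions together. Of the 77 genes higher in Lgr5 GL cells, 60 had a log2 fold change above 0 in Lrig1 GL cells (median 0.68), where 47.8% of the 13980 genes tested in both did, and 11 were called higher in both. Of 147 of the lower genes tested there, 95 lay below 0 (median -0.29), where 52.2% of all did, and 2 were called lower. Slc16a3, Slc2a1, Ldha, Krt6b, Ctsc, Tubb6 and Sprr2a1 were among the genes higher in both, and Krt15 among those lower. Slc2a1 was read in Lrig1 GL cells at 109.8, 208 and 145 CPM at 0w and 739, 991 and 781 CPM at 1w pw1 (log2 fold change 2.44, adjusted p = 0.0123). Krt6b was read there at 64.7, 82.8 and 35.2 CPM at 0w and 1675, 328 and 1072 CPM at 1w pw1 (4.07, adjusted p = 0.0157). Krt15 was read at 6749.6, 6709 and 3863 CPM at 0w and 186, 1189 and 416 CPM at 1w pw1 (-3.28, adjusted p = 0.0316). Each of these separated the wounded from the unwounded libraries in both lineages. The list medians in Lrig1 GL cells were 1.25 for glycolysis, 2.86 for wound keratins, -1.22 for bulge and germ, 0.35 for G2 and mitosis, -0.09 for ribosomal proteins and -0.05 for the respiratory chain, against 1.35, 1.53, -0.87, 1.52, 0.87 and 0.74 in Lgr5 GL cells. These list differences were not tested.

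The difference between the lineages was tested gene by gene in a joint fit of all 36 libraries, as the change in Lgr5 GL cells minus the change in Lrig1 GL cells. Of 16153 genes, 8 passed an adjusted p under 0.05 (0.0495%), 3 with a more positive and 5 with a more negative change in Lgr5 GL cells, and 2425 had an unadjusted p under 0.05. The edgeR count fell to 0 without Lrig1 0w replicate 1 (2141 at an unadjusted p under 0.05), without Lrig1 1w pw1 replicate 2 (2106), with the replicate block (2080) and with only the 12 libraries (1279), and limma-voom gave 1. It was 1 without Lrig1 1w pw1 replicate 1 or Lgr5 0w library a, 3 without Lrig1 1w pw1 replicate 3 and 4 without Lgr5 0w library b. It rose to 24 without Lgr5 1w pw1 replicate 2, 56 without Lrig1 0w replicate 3, 65 without Lgr5 0w library c and 196 without Lrig1 0w replicate 2. Fam213a was read in Lrig1 GL cells at 358, 269 and 231 CPM at 0w and 233, 301 and 210.05 CPM at 1w pw1, without the rise it had in Lgr5 GL cells (difference 2.85 ± 0.53, adjusted p = 0.0428). Dhrs7, a short-chain dehydrogenase, was read in Lgr5 GL cells at 8.85, 7.47 and 8.62 CPM at 0w and 192, 28.3 and 33.4 CPM at 1w pw1. In Lrig1 GL cells it was read at 212, 69.8 and 111 CPM at 0w and 56, 66.7 and 81.2 CPM at 1w pw1 (difference 4.32 ± 0.84, adjusted p = 0.0443). Rif1 fell in Lgr5 GL cells, and in Lrig1 GL cells it was read at 94.4, 112 and 96.7 CPM at 0w and 123, 130.1 and 77.1 CPM at 1w pw1 (difference -3.02 ± 0.57, adjusted p = 0.0428). Grip1, a scaffold protein, was read in Lgr5 GL cells at 7.03, 49.2 and 62 CPM at 0w and 14.7, 3.96 and 9.4 CPM at 1w pw1. In Lrig1 GL cells it was read at 1.03, 0.812 and 0 CPM at 0w and 8.54, 29.4 and 21.2 CPM at 1w pw1 (difference -6.86 ± 1.16, adjusted p = 0.0295). Slc2a1, Krt14 and Sox9 had differences of 0.66 ± 0.63, adjusted p = 0.655, 0.76 ± 0.40, adjusted p = 0.36 and 0.09 ± 0.51, adjusted p = 0.966, none of which passed.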

How the data were processed

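Mini-bulk RNA-seq was measured on tdTomato+ epidermal cells, 150 sorted cells per library, in 12 groups of 3 libraries (6 time points in each of 2 lineages). The deposited values are raw read counts per gene, which the authors made by trimming with Trim Galore 0.5.0, aligning to mm10 (GRCm38) with HISAT2 and counting exons with featureCounts, as the submitters' processing notes name them. No molecular identifiers were used, and the strand setting is not given in the sources used here. Lgr5 and Lrig1 libraries stand in separate tables. Groups came from the labels; the column numbers of the unwounded Lgr5 libraries do not match the replicate numbers of their titles, so these were tied to the group alone and named a, b and c.

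Counts were filtered with edgeR's filterByExpr (minimum count of 10), which left 18025 of 22587 genes, scaled by TMM and fitted with edgeR 4.0.16 (R 4.3.3) by the quasi-likelihood method, with 1 coefficient for each of the 6 Lgr5 groups. P-values were adjusted by the Benjamini-Hochberg method over all genes tested, and SE values were derived from the F statistic. All tests are two-sided. With 3 libraries against 3, an exact permutation test of a single gene cannot go below p = 0.1, so none was used. The difference between lineages was an interaction contrast in a joint fit of 36 libraries over 16153 genes. Genes named are the 15 of each direction with the smallest adjusted p, among called genes with a mean of at least 10 counts and with groups that do not overlap, without clone-style names; up to 5 called members of each of 30 lists, or the 2 highest where fewer than 2 were called; the 4 of each direction with the smallest p between lineages; and Lgr5, Lrig1, Gata6 and Cd34. Members and lists were chosen with earlier results of these data known. Named genes outside this rule were picked after their values were seen, and a few genes that met it are not reported here. Gene positions and transcript lengths are from GENCODE M21 and matched 22436 of 22587 gene symbols; promoter windows are from RefSeq, GRCm38.p6.

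The test was checked on simulated counts with known changes. At absolute log2 folds of 1, 2, 3 and 4, with 50 changed genes each, it recovered 2%, 38%, 52% and 70%. It made 3 calls on unchanged genes. A gene that was not called can therefore still have changed. Intervals and floors cover counting error only. Alternatives were other tests (likelihood ratio, DESeq2 1.42.0, limma 3.58.1 voom), scalings, filters, priors, surrogate variables (sva 3.50.0), GC and transcript length trends, a test against a fold of 1.5, a replicate block and leaving out each library; the length trend was added after seeing the data.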

Additional observations from a re-analysis of the deposited data

Results flagged for a closer look

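A tested difference between the lineages picked out genes with a change from 0w to 1w pw1 that differed between Lgr5 GL and Lrig1 GL cells at an adjusted p under 0.05 in the joint edgeR fit. As the log2 change in Lgr5 GL minus that in Lrig1 GL, Dhrs7 differed by 4.32, Fam213a by 2.85 and Rpl14-ps1, a processed pseudogene that shares reads with its parent, by 1.88. In the other direction, Rif1 differed by -3.02, Grip1 by -6.86, Tpcn2 by -8.37 and the non-coding gene Gm26910 by -14.8. Tpcn2 had 17, 5.19 and 18.6 CPM at 0w and 6.52, 1.13 and 0.181 CPM at 1w pw1 in Lgr5 GL cells and 0, 0.406 and 0 CPM at 0w and 19.9, 19.2 and 2.31 CPM at 1w pw1 in Lrig1 GL cells, and Grip1 and Gm26910 were likewise near the floor in the unwounded Lrig1 libraries, so their fitted sizes depend on the prior count and are no bounds. The unwounded and wounded libraries of Rpl14-ps1 stood apart in Lgr5 GL cells, at 93.7, 113 and 104 CPM at 0w and 344, 202 and 245 CPM at 1w pw1, and in Lrig1 GL cells the values were 400.3, 273 and 343 CPM at 0w and 196, 256 and 263 CPM at 1w pw1. With only the 12 libraries of these groups in the fit, no gene passed (1279 at an unadjusted p under 0.05).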

How the results depend on the processing

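The number of genes called at 1w pw1 against 0w, 232 as reported, was 1182 with edgeR's likelihood ratio test, 1510 with DESeq2, 117 with limma-voom, 356 with a minimum count of 30, 49 tested against a fold of 1.5, 14 with 2 and 8 with 4 estimated surrogate variables, 124 with the length trend removed, 0 with only the 6 libraries and 16 to 405 with 1 library left out. All 232 were among the calls of the likelihood ratio test and of DESeq2, and 79 among those of voom. Higher genes were 33.2% of the calls, 61.5% with voom, and 54% with the length trend removed. With replicate numbers from the columns as a block, 135 genes were called, 113 of them among the 232. Only numbers 1 and 2 are shared by both groups. The deviations of same-numbered libraries from their group means correlated at -0.0293 and -0.00553. These 2 values are too few to settle whether the numbers mark pairs or a shared batch. Size factors of DESeq2, upper-quartile scaling, no filter, a robust fit, a prior count of 2, the GC trend and leaving out Gm12415 gave 184 to 275.

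The number of genes that differ between lineages, 8 as reported, was 409 with the likelihood ratio test, 1 with voom, 0 with only the 12 libraries, 0 with the replicate block and 0 to 196 with 1 library left out. Of 2564 values of single genes under the alternatives, 442 lost the call and 43 gained one; 64 changed sign, none of them in a gene that was called before or after. Of the medians of the 30 lists, 16 kept their sign in all 23 alternatives and 14 did not, and 60 of 690 values had the opposite sign. Among the latter, the median ran from -1.36 to 0.79 for interfollicular differentiation, from -0.95 to 0.07 for the upper follicle, from -0.62 to 1.98 for cytokines, from -0.57 to 0.49 for TGF-β and BMP, from -0.75 to 0.03 for Notch, from -0.23 to 0.74 for cholesterol and fatty acids, from -0.24 to 0.27 for basal epidermis, from -0.21 to 0.61 for migration and from -1.86 to 2.12 for the immune markers. Called genes under the naming rule kept their call least often with only the 6 libraries (0 of 54), with surrogate variables (2 and 1 of 55) and without wounded replicate 1 (9 of 55), and all 55 kept it with the likelihood ratio test, DESeq2, DESeq2 size factors, a minimum count of 30, a prior count of 2, the GC trend and without Gm12415. The cause of these differences was not tested; fits with fewer libraries also have fewer degrees of freedom. Whether deeper libraries or more cells would change a call was not tested.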

Other observations

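Several called genes outside the lists, picked out after their values were seen, encode transcription factors and surface or secreted proteins. Nfib, a transcription factor of HF stem cells, fell from 818, 838 and 579.7 CPM to 209, 296 and 341 CPM (log2 fold change -1.40 ± 0.28, adjusted p = 0.0272). Hoxd10, a positional homeobox gene, fell from 162, 225 and 73.8 CPM to 41.8, 44.7 and 46.3 CPM (log2 fold change -1.79 ± 0.34, adjusted p = 0.0205). Alcam, an adhesion molecule, was read at 239.6, 179 and 143 CPM at 0w and 35.2, 39.6 and 71.4 CPM at 1w pw1, and Agrn, the matrix proteoglycan agrin, at 295, 371 and 177 CPM at 0w and 89.7, 77 and 79.5 CPM at 1w pw1, both called lower. Edn1, endothelin-1, was called lower, at 20.6, 23.5 and 12.8 CPM at 0w and at 0 in every wounded library. Other lower genes encode inhibitors of signalling. Tsc1, an inhibitor of mTORC1, was read at 41.5, 17.4 and 48.2 CPM at 0w and 3.91, 5.09 and 11.7 CPM at 1w pw1. Pik3ip1, an inhibitor of PI3 kinase, was read at 162, 266 and 116 CPM at 0w and 10.1, 39.1 and 71.2 CPM at 1w pw1. Hif1an, an inhibitor of hypoxia-inducible factor, was read at 35.4, 33.4 and 32.4 CPM at 0w and 4.57, 8.49 and 9.76 CPM at 1w pw1. Per1, a clock gene, was called lower, at 237, 257 and 73.8 CPM at 0w and 28.4, 68.5 and 21.5 CPM at 1w pw1; the hour of sampling is not given in the sources used here.

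Among higher genes outside the lists, Adam8, a membrane metalloprotease, was read at 0.454, 0.208 and 0 CPM at 0w and 143, 23.2 and 8.86 CPM at 1w pw1, and Sox15, a transcription factor of keratinocytes, at 3.86, 5.81 and 7.58 CPM at 0w and 119, 43 and 25.8 CPM at 1w pw1. Sema4d and Slit1, of axon guidance families, were called higher, Sema4d at 1.36, 0.415 and 0 CPM at 0w and 18.6, 29.4 and 5.78 CPM at 1w pw1 and Slit1 at 0, 0.208 and 0.345 CPM at 0w and 60.3, 7.36 and 7.23 CPM at 1w pw1. Ly6e, a relative of Ly6a, was read at 85.1, 116 and 96.2 CPM at 0w and 636, 268 and 417 CPM at 1w pw1 (log2 fold change 2.15 ± 0.41, adjusted p = 0.0197), and Lgals9, galectin-9, at 77.1, 77.4 and 106 CPM at 0w and 186, 298 and 368 CPM at 1w pw1 (log2 fold change 1.71 ± 0.33, adjusted p = 0.0226). Asns, asparagine synthetase, and Shmt2, the mitochondrial serine hydroxymethyltransferase, were read at 23.8, 18.9 and 34.1 CPM at 0w and 82.8, 118 and 90.5 CPM at 1w pw1 and 56, 50.4 and 64.8 CPM at 0w and 112, 172 and 164 CPM at 1w pw1, and Nme1, a nucleoside diphosphate kinase, at 47, 51.5 and 92.4 CPM at 0w and 229, 186 and 176 CPM at 1w pw1. In all of these the wounded libraries lay above the unwounded ones.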
